A study of Mus musculus with 26 samples.

Results

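The response of dorsal root ganglia (DRG), which hold the cell bodies of sensory neurons, to a crush of the sciatic nerve was measured by RNA sequencing in Ahr conditional knockout (cKO) mice. The comparison set 3 libraries of ganglia from crushed mice against 3 libraries from naive mice, 6 of the 26 libraries of the series, chosen by the genotype and injury given in the labels. All 6 mice carried floxed *Ahr* alleles (Ahr f/f) with the transgene Thy1-CRE(ERT2/EYFP), which places a tamoxifen-activated Cre recombinase and a yellow fluorescent protein under *Thy1* sequence, a promoter used to drive transgenes in neurons. At an age of 28 weeks each mouse received intraperitoneal tamoxifen, at 100 mg/kg a day over 5 days. Ganglia L4 to L6 were collected at zeitgeber times 2 to 4 (in hours, with light from time 0), 5 weeks later in the naive group and 1 day after the crush in the injured group, whose operation was 5 weeks after tamoxifen. A library came from the pooled ganglia of 1 mouse. The share of neurons that had lost *Ahr* is not given in the sources used here. Control mice (2 Ahr fl/+ and 1 Ahr fl/fl in each of a naive and a crushed group of 3, with no Cre named, given the same tamoxifen) and 4 sham libraries of cKO mice served as background.

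The libraries held 20169388 to 23540375 counts each, and replicates of a group differed by more than counting noise (chi-square per degree of freedom 3.14 to 9.64). The sex read from transcripts went against the label in injured cKO replicate 2, which is labelled female and held 0 counts of *Xist* and 1641 counts of Y-linked genes. The 3 naive cKO mice and injured replicate 1 were female, and injured replicate 3 male, by label and transcripts. The reverse mismatch was in injured control replicate 3, labelled male, with 338 *Xist* and 2 Y-linked counts. *Thy1* separated the genotypes in the 12 naive and crushed libraries, from 1241 to 1458 CPM (counts per 1000000, scaled by TMM) in those labelled cKO and from 706.6 to 806.9 CPM in those labelled control. Injured cKO replicate 2 itself set the top of the cKO range at 1458 CPM, and injured control replicate 3 was at 790.6 CPM. Each lay outside the range of the other genotype. Sex and injury were therefore partly tied together. All control libraries were female by transcripts, so sex was partly tied to the genotype difference in crush effect too. The main counts are given also without both male libraries. That leaves 1 injured library, assumed to vary like the other groups. Neither *Xist* nor a gene on the Y chromosome was among the genes called after crush. The injured group mixes the sexes, so these genes spread widely within it and could hardly be called. Their absence therefore says nothing about sex in the other calls. The 10 markers of sensory neurons summed to 7534 to 8609 CPM in the 6 libraries, and no marker was at 0.

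*Ahr* (ENSMUSG00000019256.17, chromosome 12), which encodes the ligand-activated transcription factor AhR, stood at 24.2, 28.1 and 22.7 CPM in naive replicates 1 to 3 and at 39.7, 40.5 and 38.8 CPM in injured replicates 1 to 3. All injured libraries lay above all naive ones, as in 18.5% of all genes tested. The log2 fold change was 0.66 (SE 0.0938, adjusted p 0.00046) by edgeR's quasi-likelihood test with Benjamini-Hochberg adjustment. In naive control mice the mean was 22.2 ± 2.87 CPM (SD, n = 3), so the count over the whole gene does not check the deletion, and cKO denotes libraries labelled so. *Thy1* was at 1382, 1252 and 1416 CPM in naive and 1241, 1458 and 1358 CPM in injured cKO libraries (adjusted p 0.988).

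Cutting or crushing the peripheral branch of a sensory neuron sends calcium and kinase signals back to its cell body, which then turns on transcription factors such as ATF3, c-Jun and SOX11, and with them a set of growth-associated proteins that support regrowth of the axon. In the same neurons transcripts for ion channels, transmitter receptors and markers of neuronal subtype are known to decline. Satellite glia, which wrap the cell bodies, and resident macrophages respond within days. In bulk ganglia, fewer cells of a type and less RNA per cell cannot be told apart.

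Of 21261 genes tested, 2285 rose after the crush (10.7%) and 1677 fell (7.89%), at an adjusted p under 0.05. Rises reached further than falls: 475 genes rose at least 2-fold (2.23%) and 103 fell at least 2-fold (0.484%). At 4-fold or more the counts were 163 and 12. The naive mean was under 1 CPM in 234 of the 475 and in 28 of the 103. From such a level a large fall can hardly be seen. Most calls were small. Of the genes that rose, 1321 rose by less than 1.5-fold, with a median log2 fold change of 0.49 over all genes that rose, and 1222 of those that fell did so by less than 1.5-fold, with a median of -0.42. The median over all genes tested was -0.005. The counts and medians of the gene lists below are to be read against these shares and this median. Without both injured libraries that are male by transcripts, 845 genes rose and 334 fell, and higher calls made up 71.7% of all calls against 57.7% with all libraries. The share was 70.4% with sex by transcripts as a covariate (995 higher and 419 lower), an estimate for which only injured replicate 1 sets crushed against naive mice of the same sex. Of the 3962 calls made with all libraries, 1325 were also called in the same direction with the covariate. In both settings 3961 kept their sign, which says little, as the calls were chosen on these same libraries.

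Promoter windows were searched for short letters bound by factors of the injury response, such as AP-1, the dimer of Jun and Fos family proteins. RefSeq windows of 300 bases (250 before the transcript start to 50 after it, GRCm38.p6) were found for 294 of 474 gene symbols that rose at least 2-fold and for 71 of 103 that fell at least 2-fold. The letters searched, on both strands, were TGANTCA for AP-1, TGACGTCA for the cyclic AMP response element (CRE), TGATGNAA for the joint C/EBP and ATF site, TTCNNNGAA for STAT factors, TNGCGTG for the AhR core and CACGTG for the E-box. The letters of no motif contain those of another, though neighbouring matches can share bases. AP-1 letters were in 46 of 369 windows of genes that rose (12.5%), in 2 of 84 windows of genes that fell (2.38%) and in 989 of 17002 windows of all genes tested (5.82%). STAT letters were in 11.4%, 10.7% and 7.03% of the same windows, and CRE letters in 2.44%, 2.38% and 2.66%. The C/EBP and ATF letters were in 3.52%, 7.14% and 2.45%, the AhR core in 6.23%, 4.76% and 7.08%, and the E-box in 5.69%, 10.7% and 9.02%. These shares are descriptions of letters in a window and were not tested.

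The windows of 5 genes with large rises described below are printed because they hold such letters, 5′ to 3′ on the strand of the gene, with capitals marking the AP-1 letters, or the C/EBP and ATF letters in *Atf3*. *Sprr1a* (chr3:92485832-92486131, minus strand) held AP-1 letters at 146 and 116 bases before the start, *Tmem88b* (chr4:155785825-155786124, minus strand) at 231, *Il6* (chr5:30012864-30013163, plus strand) at 249 and *Plaur* (chr7:24462233-24462532, plus strand) at 69 bases before it. *Atf3* (chr1:191183284-191183583, minus strand) held the C/EBP and ATF letters, on the other strand, at 110 bases before the start.
Sprr1a: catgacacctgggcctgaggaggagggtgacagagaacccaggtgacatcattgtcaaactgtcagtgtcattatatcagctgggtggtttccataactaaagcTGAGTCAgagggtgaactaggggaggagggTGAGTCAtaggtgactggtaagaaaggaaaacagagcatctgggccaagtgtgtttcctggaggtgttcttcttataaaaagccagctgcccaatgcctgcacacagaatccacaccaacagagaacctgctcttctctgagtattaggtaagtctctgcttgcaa
Tmem88b: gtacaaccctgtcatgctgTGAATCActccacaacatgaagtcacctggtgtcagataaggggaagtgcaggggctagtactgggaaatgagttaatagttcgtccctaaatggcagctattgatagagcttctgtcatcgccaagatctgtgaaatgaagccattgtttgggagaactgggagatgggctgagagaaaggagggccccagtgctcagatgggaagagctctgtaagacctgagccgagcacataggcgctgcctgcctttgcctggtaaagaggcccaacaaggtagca
Il6: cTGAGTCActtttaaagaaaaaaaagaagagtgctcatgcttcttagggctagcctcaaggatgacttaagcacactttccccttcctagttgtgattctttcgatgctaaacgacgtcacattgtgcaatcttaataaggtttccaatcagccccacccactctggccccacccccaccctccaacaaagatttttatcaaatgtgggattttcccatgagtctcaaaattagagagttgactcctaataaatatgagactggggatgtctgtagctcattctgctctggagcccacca
Plaur: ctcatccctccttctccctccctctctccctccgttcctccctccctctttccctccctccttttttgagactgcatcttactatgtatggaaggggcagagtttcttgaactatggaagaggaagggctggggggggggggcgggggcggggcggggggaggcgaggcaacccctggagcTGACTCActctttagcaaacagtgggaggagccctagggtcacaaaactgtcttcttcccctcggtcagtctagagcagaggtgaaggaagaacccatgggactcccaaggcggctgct
Atf3: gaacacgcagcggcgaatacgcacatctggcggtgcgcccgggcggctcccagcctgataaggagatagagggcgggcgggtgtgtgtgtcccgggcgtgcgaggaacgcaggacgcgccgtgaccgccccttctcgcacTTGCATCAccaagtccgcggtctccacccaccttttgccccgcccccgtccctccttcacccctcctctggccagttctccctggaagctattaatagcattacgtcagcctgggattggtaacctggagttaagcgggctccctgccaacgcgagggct

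Transcription factors of the injury response rose in 14 of 16 cases tested, with none lower and a median log2 fold change of 0.57. *Atf3* (ENSMUSG00000026628.13, chromosome 1, 191170296 to 191218039, minus strand in GRCm38), a factor of the ATF and CREB family that is scarce in intact sensory neurons, was at 11.7, 11.04 and 17.3 CPM in naive replicates 1 to 3 and at 526, 769.5 and 644 CPM in injured replicates 1 to 3. The lowest injured library held far more than the highest naive library, and the log2 fold change was 5.60 (SE 0.191, adjusted p 3.84e-08). *Sox11*, a SoxC factor that promotes neurite growth, went from 12.3, 10.1 and 10.1 CPM in the naive to 82.7, 108 and 101 CPM in the injured libraries, a change of 3.17 (SE 0.136). *Jun*, the core of AP-1, was at 98.2, 107 and 102 CPM and then at 329, 435 and 350.3 CPM, a change of 1.86 (SE 0.0970); its antisense neighbour holds counts equal to 16.5% of its own. Smaller log2 fold changes were those of *Klf6* (1.29), *Smad1* (0.97), which relays BMP signals, *Cebpd* (0.93), *Myc* (0.90), *Cebpb* (0.58), *Creb1* (0.56), *Stat3* (0.41) and *Creb3* (0.28), all of which rose. *Hif1a*, *Klf7* and *Rest* made up the 14. *Klf4*, known to restrain axon growth, was at a log2 fold change of -0.23 (adjusted p 0.636) and *Klf9* at 0.18 (adjusted p 0.421). Without both male libraries 9 of the 16 still rose.

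Among AP-1 members and immediate early genes, 12 of 23 rose and 1 fell, with a median of 0.63. The log2 fold changes were 2.07 for *Csrnp1*, 1.91 for *Batf3*, 1.11 for *Arc*, a synaptic immediate early gene, 0.99 for *Fosl2* and 0.80 for *Junb*. *Fos* and *Egr1*, which respond to stimuli within minutes, were not called. *Fos* was at 5.71, 7.56 and 5.38 CPM in naive and 10.6, 8.54 and 9.71 CPM in injured libraries (adjusted p 0.245), and *Egr1* at 16.8, 23.2 and 16.1 CPM and 14.8, 14.04 and 19.2 CPM (adjusted p 0.661). *Fosb* fell, from 2.28, 1.24 and 2.15 CPM to 1.04, 0.874 and 0.992 CPM, a change of -0.96 (SE 0.252, adjusted p 0.0199). *Fosb* was not called without naive replicate 1 or 3 or injured replicate 2 or 3 (log2 fold change -0.98 to -0.81). *Csrnp1* shares its position with *Cx3cr1*, so its value is uncertain. Leaving out both male libraries left 8 rises and no fall in the list.

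Growth-associated effectors, the proteins that act at the membrane, the cytoskeleton and the matrix during regrowth, rose in 17 of 29 cases with none lower (median 0.47). *Sprr1a* (ENSMUSG00000050359.7, chromosome 3, 92483952 to 92485895, minus strand), a small proline-rich protein that promotes axon outgrowth, was at 0.464, 0.367 and 1.26 CPM in naive and 23.1, 56.9 and 33.9 CPM in injured libraries. Injured replicate 2 was the highest and replicate 1 the lowest, and the change was 5.75 (SE 0.434, adjusted p 5.22e-06). *Gadd45a*, a stress and DNA repair factor, went from 23.9, 22.04 and 22.8 CPM to 186, 261 and 211 CPM, a log2 fold change of 3.26. *Flrt3*, a cell adhesion protein, changed by 3.53 on the log2 scale, though it overlaps *Macrod2* and shares reads with it. *Plaur*, the urokinase receptor, went from 7.25, 7.42 and 6.59 CPM to 36.6, 56.2 and 45.3 CPM (log2 fold change 2.70, SE 0.205). Rises were also called, with their log2 fold changes, for *Ecel1* (3.56), a membrane peptidase, *Tnfrsf12a* (2.40), the receptor of TWEAK, the microtubule regulator *Stmn4* (2.11), the laminin receptor subunit *Itga7* (1.76) and *Cd44* (0.93). *Gap43*, the classic growth cone protein, went from 230.2, 226 and 236 CPM to 279.6, 334 and 297 CPM, a log2 fold change of 0.40. *Lgals1* was at a log2 fold change of 0.03 (adjusted p 0.854). Without both male libraries 13 of the 29 rose. Among 22 tubulins, stathmins and neurofilaments 5 rose, *Tubb6* by the log2 value of 1.33, and 2 fell; leaving out each library in turn, 0 or 1 fell, and without both male libraries 2 rose and 0 fell.

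**Figure D1:**
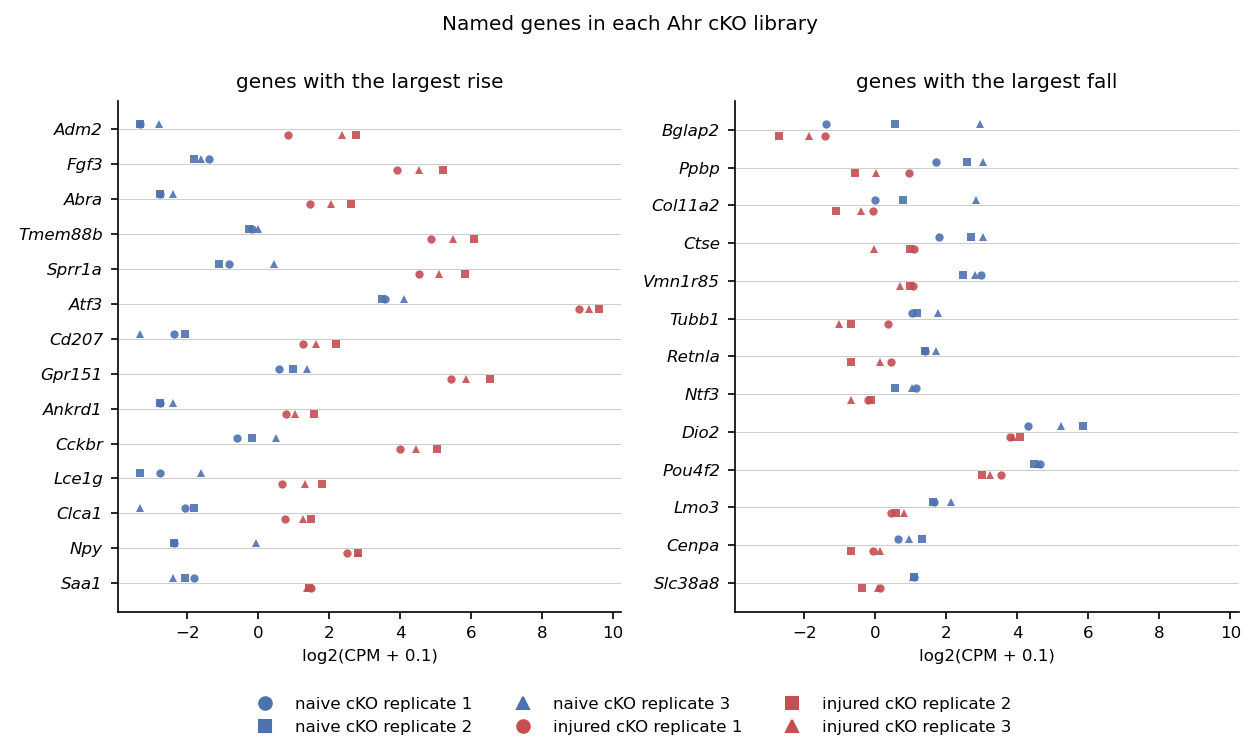
Levels of 14 of the 15 genes with the largest rise and 13 of the 15 with the largest fall in each of the 6 cKO libraries, as log2(CPM + 0.1), with 1 symbol per library. Injured replicate 2 is the highest injured library in 12 of the 14 genes that rose, and naive replicate 3 stands out in *Bglap2* (7.67 CPM) and *Col11a2* (6.996 CPM).

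Neuropeptides known to be induced by nerve injury rose in 7 of 7 cases tested, with a median log2 fold change of 2.17, and 6 of them without both male libraries. *Gal* (galanin) was at 6.69, 5.50 and 5.70 CPM in naive and 20.9, 36.6 and 26.4 CPM in injured libraries, a change of 2.23 (SE 0.204). *Npy* (neuropeptide Y) was near 0 in naive replicates 1 and 2 (0.0929, 0.0916 and 0.852 CPM) and reached 5.52, 6.94 and 6.95 CPM after the crush (log2 fold change 4.19, SE 0.461). *Adcyap1*, which encodes PACAP, went from 138, 126 and 133 CPM to 503, 719.7 and 565 CPM. Each injured library lay far above the naive ones, with a change of 2.17 (SE 0.114). The log2 fold change was 1.97 for *Vgf*, 1.59 for *Bdnf*, the brain-derived neurotrophic factor, 3.31 for *Crh* and 0.79 for *Nts* (neurotensin). *Vip* and *Cck* did not pass the filter on low counts. Of 7 nociceptor peptides 2 rose and 1 fell, against 1 and 0 without both male libraries. *Tac1*, the precursor of substance P, was at 165, 149 and 159 CPM and 176, 152 and 179 CPM (adjusted p 0.434). *Calca*, the CGRP precursor, was at 711, 662 and 709 CPM and 764, 746 and 739 CPM (adjusted p 0.184). *Sst* (somatostatin) fell from 9.94, 6.69 and 6.73 CPM to 4.43, 3.19 and 4.10 CPM (log2 fold change -0.99, SE 0.186, adjusted p 0.003). *Nppb* rose by 0.71 on the log2 scale, and was not called without naive replicate 3 (log2 fold change 0.61). *Grp*, the gastrin-releasing peptide, had 0 counts in the naive libraries and 62 in the injured ones, at least 21.0-fold higher against a floor of 3 counts over the group, and overlaps another counted gene.

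The largest rises by the naming rule included genes outside these lists. *Adm2* (intermedin, a peptide of the calcitonin family) had 1 count over the 3 naive libraries and 282 over the injured ones, a ratio of 286 with a 95% counting interval of 50.9 to 11300, at 1.67, 6.64 and 5.004 CPM in injured replicates 1 to 3. *Fgf3*, a secreted fibroblast growth factor, was at 0.279, 0.183 and 0.224 CPM in naive and 14.9, 37.1 and 22.8 CPM in injured libraries (log2 fold change 6.73, SE 0.448, adjusted p 2.34e-06). *Tmem88b*, a membrane protein, rose from 0.790, 0.733 and 0.897 CPM to 28.8, 67.9 and 44.95 CPM (log2 fold change 5.86, SE 0.355). The G protein-coupled receptor *Gpr151* went from 1.39, 1.88 and 2.47 CPM to 43.3, 91.8 and 57.5 CPM (log2 fold change 5.06, SE 0.311), and *Cckbr*, the cholecystokinin B receptor, from 0.557, 0.779 and 1.30 CPM to 15.97, 32.6 and 21.7 CPM (log2 fold change 4.72, SE 0.369). The set also held, with their log2 fold changes, *Abra* (5.99), an actin-binding protein, *Cd207* (5.30), the langerin of Langerhans cells, the ankyrin repeat protein *Ankrd1* (5.01), *Lce1g* (4.64), *Clca1* (4.28) and *Saa1* (4.19), an acute phase protein. The 15 genes also rose in control mice, and each was called without both male libraries and with each cKO library left out in turn.

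Sensory subtype factors moved the other way: 11 of 17 fell, none rose, and the log2 fold change was below 0 in 17 of 17, with a median of -0.39. *Pou4f2* (Brn3b) fell from 24.7, 21.99 and 23.99 CPM to 11.4, 7.97 and 9.23 CPM (log2 fold change -1.30, SE 0.137, adjusted p 6.22e-05). *Hoxd1* went from 26.8, 26.2 and 30.1 CPM to 14.3, 11.8 and 15.9 CPM (log2 fold change -0.98, SE 0.126) and *Mafa* from 13.1, 12.5 and 15.6 CPM to 5.88, 7.46 and 7.81 CPM (log2 fold change -0.96, SE 0.136). The injured libraries of these genes lay below all naive ones, as did those of 17.6% of all genes tested. Smaller falls on the log2 scale were those of *Runx3* (-0.56), which specifies proprioceptors, *Runx1* (-0.37), a factor of nonpeptidergic nociceptors, *Prdm12* (-0.47), a nociceptor determinant that overlaps another counted gene, *Tlx3* (-0.38) and *Isl1* (-0.32). *Runx3* was not called without naive replicate 3 (log2 fold change -0.50). *Pou4f1* (Brn3a) was at a log2 fold change of -0.17 (adjusted p 0.157). Without both male libraries 5 of the 17 fell.

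Mas-related G protein-coupled receptors, which detect itch and pain stimuli in small neurons, fell in 6 of 12 cases and rose in none (median -0.40). *Mrgpra3*, a chloroquine receptor of itch neurons, was at 27.8, 25.4 and 26.6 CPM in naive and 15.3, 11.6 and 13.3 CPM in injured libraries (log2 fold change -0.99, SE 0.0981, adjusted p 4.26e-05). *Mrgprd*, the marker of a large class of nonpeptidergic nociceptors, fell from 322, 279.6 and 299.7 CPM to 244, 223 and 273 CPM (log2 fold change -0.29, SE 0.0806). *Mrgprd* was not called without naive replicate 1 or 3 or injured replicate 1 or 2 (log2 fold change -0.30 to -0.23). The members of this family are near-identical in places, so reads may be split among them. Opioid and cannabinoid genes fell in 3 of 10 cases with none higher (median -0.61). The log2 fold changes were those of *Oprk1*, the kappa receptor (-1.11), *Oprl1*, the nociceptin receptor (-0.85), and *Oprd1*, the delta receptor (-0.82). *Oprm1*, the mu receptor, was at 211, 173 and 215 CPM and 194, 139 and 163 CPM (adjusted p 0.227). Without both male libraries 3 Mas-related receptors and 1 of the opioid genes fell.

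Potassium channels fell in 27 of 80 cases and rose in 2, with a median of -0.22. *Kcna2*, an axonal delayed rectifier, went from 648, 611 and 736 CPM to 499, 450 and 416 CPM (log2 fold change -0.55, SE 0.120), and *Kcnj3* (GIRK1) from 51.5, 43.98 and 49.96 CPM to 27.9, 22.9 and 28.6 CPM (log2 fold change -0.87, SE 0.126). On the log2 scale *Kcns1* (-0.63), *Kcnd1* (-0.48) and *Kcnk18* (-0.66), the TRESK background channel, fell too. *Kcnk16*, a background channel, rose from 1.16, 0.550 and 0.673 CPM to 3.44, 9.62 and 6.69 CPM (log2 fold change 3.04, SE 0.383, adjusted p 0.000214). The count of falls was 18 without injured replicate 2 and 5 without both male libraries. The count of rises was 4 without naive replicate 2 or injured replicate 1.

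Voltage-gated sodium channels fell in 4 of 14 cases with none higher (median -0.21), among them *Scn1a*, *Scn4a* and *Scn2b* at log2 fold changes of -0.42, -0.41 and -0.32. The count of falls was 7 without naive replicate 2, 1 without naive replicate 1 or 3 or injured replicate 2 or 3, and 0 without both male libraries. The nociceptor channels *Scn10a* (Nav1.8) and *Scn11a* (Nav1.9) were at log2 fold changes of -0.18 and -0.21 (adjusted p 0.192 and 0.0931). The calcium channel subunit *Cacna2d1*, the binding site of gabapentin, rose from 226, 183 and 219 CPM to 361, 348 and 333 CPM (log2 fold change 0.73, SE 0.101, adjusted p 0.000402), alone among 17 calcium channel genes. Of these 3 fell, 1 without naive replicate 1 or 3 and 0 without both male libraries. In the TRP and Piezo list, 2 of 18 rose on the log2 scale, *Trpv2* (0.57) and the capsaicin receptor *Trpv1* (0.23), and 3 fell, *Trpc5* (-0.98) and *Trpc6* (-0.67) among them. *Trpv1* was not called when any of the 6 libraries was left out (log2 fold change 0.17 to 0.26), and 5 of the list fell without injured replicate 1. In this list 1 gene rose and 2 fell without both male libraries. Of 10 P2X and acid-sensing channels, *P2rx5* rose (log2 fold change 0.76) and *Asic1* and *Asic2* fell (-0.41 and -0.28), and 0 of the 10 were called without both male libraries. Among 49 receptors for glutamate, GABA, glycine and acetylcholine, 14 fell and 3 rose. *Chrna6*, a nicotinic subunit, fell from 109, 80.5 and 99.7 CPM to 53.6, 39.1 and 52.7 CPM (log2 fold change -0.99, SE 0.143), and its partner *Chrnb3* was at -1.08 on the log2 scale. *Chrna5*, another nicotinic subunit, rose from 0.279, 0.596 and 0.673 CPM to 2.90, 4.94 and 2.55 CPM (log2 fold change 2.72, SE 0.332). Without naive replicate 1 the count of falls was 9. Of these receptors 4 fell and 2 rose without both male libraries.

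In the neurotrophin and GDNF family, 3 of 14 genes rose and 2 fell, against 1 and 0 without both male libraries. *Gfra1*, the GDNF co-receptor, was at 234, 203 and 235 CPM in naive and 453, 666 and 515 CPM in injured libraries (log2 fold change 1.28, SE 0.124, adjusted p 3.47e-05), and an overlapping gene holds counts equal to 13.2% of its own. *Gfra3*, the artemin co-receptor, rose by 0.48 and *Ret*, the kinase they share, by 0.30 on the log2 scale. *Ret* was not called without naive replicate 2 or injured replicate 2 (log2 fold change 0.23 to 0.26). *Gfra2*, the neurturin co-receptor, fell from 208, 161 and 172 CPM to 138, 103 and 136 CPM, a change of -0.52 (SE 0.113). The neurotrophin *Ntf3* fell from 2.09, 1.37 and 1.93 CPM to 0.769, 0.823 and 0.518 CPM (log2 fold change -1.36, SE 0.244). *Ntrk2* and *Ntrk3*, receptors of neurotrophins, were at log2 fold changes of -0.15 and -0.23, neither of them called.

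Interleukin-6 rose, as did some of the feedback inhibitors of its Jak and Stat route. *Il6* was at 0.139, 0.367 and 0.314 CPM in naive and 3.44, 3.81 and 4.23 CPM in injured libraries (log2 fold change 3.78, SE 0.367, adjusted p 3.69e-05), and was 1 of the 3 of 14 gp130 cytokines and receptors that rose, with *Osmr* (log2 fold change 0.36) another, and 2 rose without both male libraries. The shared receptor *Il6st* (gp130) was at a log2 fold change of 0.07 (adjusted p 0.515). *Socs3*, a feedback inhibitor of Jak kinases, rose from 12.03, 14.6 and 13.6 CPM to 61.2, 65.6 and 56.2 CPM (log2 fold change 2.18, SE 0.192), with *Cish* (log2 fold change 1.32, sharing reads with a neighbour), *Socs2* (0.75), *Jak2* (0.57) and *Stat3*. In this list of Jak, Stat and Socs genes 9 of 19 rose with none lower, and 7 rose without both male libraries.

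Genes of the integrated stress response, in which phosphorylation of eIF2 favours translation of ATF4, rose in 11 of 17 cases and fell in 1. *Chac1*, a glutathione-degrading enzyme and ATF4 target, was at 7.62, 7.70 and 7.18 CPM in naive and 21.9, 38.5 and 35.2 CPM in injured libraries (log2 fold change 2.09, SE 0.175, adjusted p 1.25e-05). On the log2 scale *Trib3* (1.40), *Sesn2* (1.27), *Ppp1r15a* (1.08), *Ddit3* (0.78) and *Atf4* itself (0.69) also rose, and *Ddit4* fell (-0.74, adjusted p 0.041). *Ddit4* was not called without naive replicate 2 or 3 or injured replicate 2 or 3 (log2 fold change -0.76 to -0.61). *Ppp1r15a* and *Ddit3* share reads with neighbouring genes. Aminoacyl-tRNA synthetases and amino acid synthesis genes rose in 18 of 33 cases by small steps (median 0.24), led by *Mthfd2* (log2 fold change 0.68), *Cars* (0.60) and *Iars* (0.60). The count was 8 without injured replicate 2, 11 without naive replicate 2, 10 without naive replicate 1 or 3 or injured replicate 3, and 1 without both male libraries. In that last setting 8 of the stress response genes rose and 0 fell. Heat shock proteins and chaperones rose in 10 of 28 cases, *Hspb1* (log2 fold change 0.91) and the endoplasmic reticulum chaperone *Hspa5* (0.62) among them. The count was 3 without both male libraries, 4 without naive replicate 1, 5 without naive or injured replicate 3 and 6 without injured replicate 2. Of 15 Nrf2 genes 3 rose and 1 fell, against 2 and 0 without both male libraries. Among the rises, *Srxn1*, which repairs peroxiredoxins, went from 519, 494 and 534 CPM to 1055, 1567 and 1271 CPM (log2 fold change 1.33, SE 0.115).

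**Figure D2:**
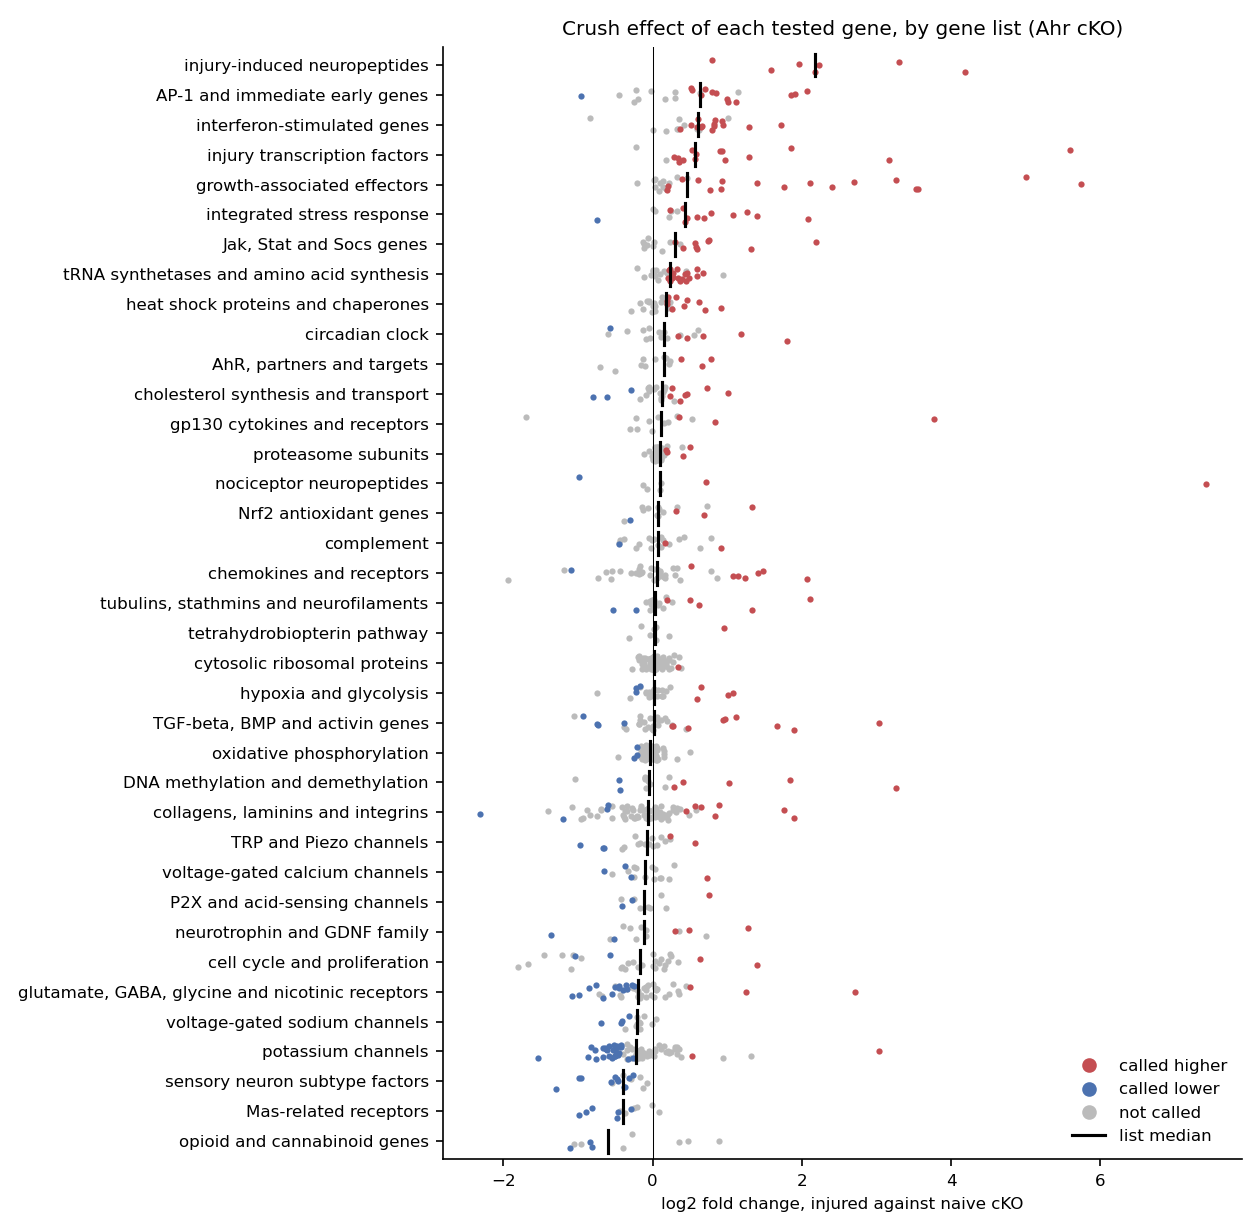
Log2 fold change of injured against naive cKO ganglia for every tested gene of each pathway list, ordered by the list median (black bar); red points rose, blue points fell and grey points were not called at an adjusted p under 0.05. Injury neuropeptides have the highest median (2.17) and opioid and cannabinoid genes the lowest (-0.61). The rightmost point, *Grp*, had 0 naive counts, so its position depends on the prior count.

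Interferon-stimulated genes rose in 14 of 24 cases with none lower (median 0.61), in 11 without both male libraries and in 9 without naive replicate 1. *Ifit1*, an antiviral effector, was at 42.6, 38.1 and 43.6 CPM in naive and 168, 147 and 95.7 CPM in injured libraries (log2 fold change 1.72, SE 0.259, adjusted p 0.000706), here with replicate 1 the highest. *Mx2* (log2 fold change 1.29), *Oasl2* (0.83) and *Gbp2* (0.83) rose, and *Isg15* was at 0.32 (adjusted p 0.328). Of 40 chemokines and receptors, 7 rose and 1 fell. The monocyte attractant *Ccl7* went from 0.836, 1.28 and 0.807 CPM to 3.53, 4.22 and 4.62 CPM (log2 fold change 2.07, SE 0.245). *Ccl2*, another, rose by 1.48 on the log2 scale, though an overlapping gene holds the same counts. The count of rises was 2 without both male libraries, 3 without naive replicate 1 or 3 and 4 without injured replicate 1 or 3, and the count of falls 0 without both male libraries, 2 without naive replicate 2 and 3 without injured replicate 3. Of 11 macrophage markers 0 were called by edgeR or DESeq2, and 0 had an unadjusted p under 0.05 by edgeR, with a summed level of 183 to 255.6 CPM in naive and 201.9 to 260.6 CPM in injured libraries. Of 21 complement genes 2 rose, *C4b* among them (log2 fold change 0.92), and 1 fell. In 5 of the 6 fits that leave out a library 1 rose, and 0 fell without naive replicate 1. None of the 21 was called without both male libraries.

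*Gfap*, an intermediate filament of nonmyelinating Schwann cells that reactive satellite glia induce, went from 1.12, 1.60 and 1.53 CPM to 8.73, 7.82 and 6.51 CPM (log2 fold change 2.44, SE 0.236, adjusted p 3.57e-05). All injured libraries lay above all naive ones, as they did in 18.5% of all genes tested. It was the 1 of 5 nonmyelinating Schwann cell markers called, with 2 higher without naive replicate 2, and the 5 summed to 1265 to 1373 CPM in naive and 1267 to 1301 CPM in injured libraries. Of 6 satellite glia markers *Glul* rose (log2 fold change 0.48), though not without both male libraries, 2 rose without naive replicate 2, and the others did not pass with all libraries, *Fabp7* at -0.11 and *Kcnj10* at 0.25 among them. The 6 markers summed to 1857 to 2129 CPM in naive and 2067 to 2306 CPM in injured libraries.

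TGF-beta, BMP and activin genes rose in 9 of 36 cases and fell in 4. *Fst* (follistatin, which binds activins) went from 4.83, 4.12 and 4.17 CPM to 30.4, 44.3 and 32.8 CPM (log2 fold change 3.03, SE 0.151, adjusted p 4.11e-07). On the log2 scale the activin subunits *Inhba* (1.67) and *Inhbb* (1.12) and the receptors *Acvr1c* (1.90) and *Acvr1* (0.94) rose, while *Nog* (noggin, which binds BMPs, -0.93) and *Smad9* (-0.74) fell. Without both male libraries 4 of the list rose and 1 fell. Of 16 DNA methylation and demethylation genes 5 rose and 2 fell. *Tet3*, which oxidises methylated cytosine, went from 31.2, 33.4 and 33.4 CPM to 62.6, 73.5 and 63.9 CPM (log2 fold change 1.03, SE 0.0980), and *Gadd45g* rose by 1.85 on the log2 scale. Without naive replicate 1 or 3 the rises were 3, and without naive replicate 1 or 2 or injured replicate 2 or 3 the falls were 0. The list had 3 rises and 0 falls without both male libraries. *Gch1*, the enzyme that limits tetrahydrobiopterin synthesis, rose by 0.96 on the log2 scale, alone among 8 genes of its pathway. None of them fell with all libraries, and 1 fell without naive replicate 2 or injured replicate 1. Of 78 collagens, laminins and integrins, 7 rose, *Itga3* (log2 fold change 0.90) and *Itgb1* (0.57) among them. The falls were 4, against 2 without naive replicate 2 or injured replicate 1 and 0 without naive replicate 3 or injured replicate 2 or 3. Of the 78 genes 3 rose and 0 fell without both male libraries. Fibroblast markers summed to 614.9, 1081 and 1000 CPM in naive replicates 1 to 3 and to 579.9 to 713.9 CPM in the injured libraries, with 0 of 6 called by edgeR or DESeq2 and 2 lower at an unadjusted p under 0.05 by edgeR, and 2 called lower without naive replicate 1. Bone and cartilage markers, given below, summed lower in the injured libraries, and the part of either list in the falls was not tested.

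Of 13 genes for AhR, its partners and its targets, 3 rose, *Ahr*, its dimer partner *Arnt2* (log2 fold change 0.38) and *Cyp1b1*, and none fell (median 0.15); without injured replicate 2, 1 fell. *Cyp1b1*, a cytochrome P450 and a known AhR target, was at 66.6, 78.1 and 84.1 CPM in naive and 134, 136 and 124 CPM in injured libraries (log2 fold change 0.78, SE 0.0774, adjusted p 4.07e-05). *Cyp1a1* (log2 fold change -0.51), *Ahrr*, the AhR repressor (-0.11), and *Tiparp* (0.21, adjusted p 0.0766) were not called. In the circadian clock list, 5 of 19 rose, led by the repressors *Nfil3* (log2 fold change 1.80) and *Bhlhe41* (1.19), and 1 fell. Without naive replicate 1 or 3 or injured replicate 2 the rises were 3, and without naive replicate 1 or 2 or injured replicate 2 the falls were 0. There were 4 rises and 0 falls without both male libraries. *Arntl* (BMAL1), the dimer partner of CLOCK, was at a log2 fold change of -0.59 (adjusted p 0.0603).

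Ribosomal protein genes had 1 rise in 79 (median 0.03), and 2 without both male libraries, and oxidative phosphorylation genes 3 falls in 81 (median -0.04). The latter count was 1 without naive replicate 1, 2 or 3 or injured replicate 1 or 3, 2 without injured replicate 2 and 0 without both male libraries. Proteasome subunits had 4 rises in 38, 1 to 3 when a library was left out, and 0 without both male libraries. Of 27 hypoxia and glycolysis genes, 4 rose, the glucose transporter *Slc2a1* among them (log2 fold change 1.08, sharing reads with a neighbour), and 3 fell, against 0 without naive replicate 1 or 3 or injured replicate 2 and 1 without injured replicate 1. Of the 27 genes 3 rose and 0 fell without both male libraries. Of 26 cholesterol genes 7 rose and 3 fell, against 3 and 1 without both male libraries. *Abca1*, the cholesterol exporter, went from 57.3, 59.97 and 56.6 CPM to 113, 147 and 91.7 CPM (log2 fold change 1.01, SE 0.172). Cell cycle genes had 2 rises in 30, *Cdkn1a* (log2 fold change 1.40), an inhibitor of cyclin-dependent kinases, among them, and 2 falls, against 0 or 1 with each library left out. Of the 30 genes 1 rose and 0 fell without both male libraries.

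Several of the largest falls were in genes of blood and bone. *Bglap2* (osteocalcin 2) was at 0.279, 1.37 and 7.67 CPM in naive and 0.272, 0.0514 and 0.173 CPM in injured libraries (log2 fold change -4.16, SE 1.09, adjusted p 0.019), with naive replicate 3 far above the others and naive replicate 1 level with injured replicate 1. *Col11a2*, a cartilage collagen, was likewise highest in naive replicate 3, at 0.882, 1.60 and 6.996 CPM against 0.860, 0.360 and 0.647 CPM (log2 fold change -2.32, SE 0.716). *Bglap2* was not called without naive replicate 3 or injured replicate 2 or 3 (log2 fold change -4.18 to -2.26). *Col11a2* was not called without naive replicate 3 or injured replicate 1 or 2 or 3 (log2 fold change -2.63 to -0.98). On the log2 scale *Ppbp* (-2.37) and *Tubb1* (-1.82), both of platelets, *Ctse* (-1.91) and *Retnla* (-1.55) fell too. The bone and cartilage markers, a list chosen after values were seen, summed to 12.1, 23.4 and 84.3 CPM in naive replicates 1 to 3 and to 9.25 to 10.04 CPM in the injured libraries, with 4 of 9 called lower. Neutrophil markers summed to 195.6 to 383.2 CPM in naive and 58.0 to 132.7 CPM in injured libraries, without overlap. Of 7 neutrophil markers 0 were called by edgeR or DESeq2, and 6 were lower at an unadjusted p under 0.05 by edgeR. Granulocyte precursor markers, chosen likewise, summed to 128 to 334 CPM and 38.2 to 74.8 CPM. Of these 8 markers 0 were called lower, with a median log2 fold change of -2.02. Red cell markers summed to 263.2 to 426.8 CPM against 107.1 to 285.2 CPM, with 2 of 5 lower and 0 lower without naive replicate 2 or 3 or injured replicate 1 or 3, or without both male libraries. Platelet markers, also chosen after values were seen, summed to 60.7 to 69.5 CPM against 57.9 to 66.3 CPM, with 2 of 8 called lower, 7 of 8 below 0 on the log2 scale and a median of -1.57. Red cell precursor markers, chosen in the same way, summed to 179.4 to 224.8 CPM against 176.7 to 201.2 CPM, with 1 of 7 called lower, 6 of 7 below 0 and a median of -1.84. No neutrophil or red cell marker was at 0, and the part of these levels in the falls was not tested.

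Without both male libraries most of the 15 largest falls by the naming rule were not called. With each cKO library left out in turn, 7 of the 15 kept their call throughout. *Vmn1r85*, *Pou4f2*, *Lmo3*, *Slc38a8*, *Ntf3* and *Retnla* were among them. *Vmn1r85*, a vomeronasal-type receptor, was at 7.71, 5.45 and 6.95 CPM in naive and 1.99, 1.85 and 1.51 CPM in injured libraries (log2 fold change -1.91, SE 0.194, adjusted p 4.77e-05). The log2 fold change was -1.26 for *Lmo3*, a LIM-only cofactor, and -1.19 for the amino acid transporter *Slc38a8*. *Dio2*, the thyroid hormone activating enzyme, was spread widely among naive mice, 19.7, 57.5 and 37.4 CPM, against 13.8, 16.9 and 14.6 CPM after the crush (log2 fold change -1.34, SE 0.396, adjusted p 0.0343). *Dio2* was not called without naive replicate 2 or 3 or injured replicate 1 or 2 or 3 (log2 fold change -1.43 to -0.93). *Cenpa*, a centromere histone, was at -1.24 on the log2 scale. Without injured replicate 2 the count of these falls called was 7, without injured replicate 1 it was 10 and without naive replicate 2 it was 9. In control mice 7 of the 15 were called lower after the crush.

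**Figure D3:**
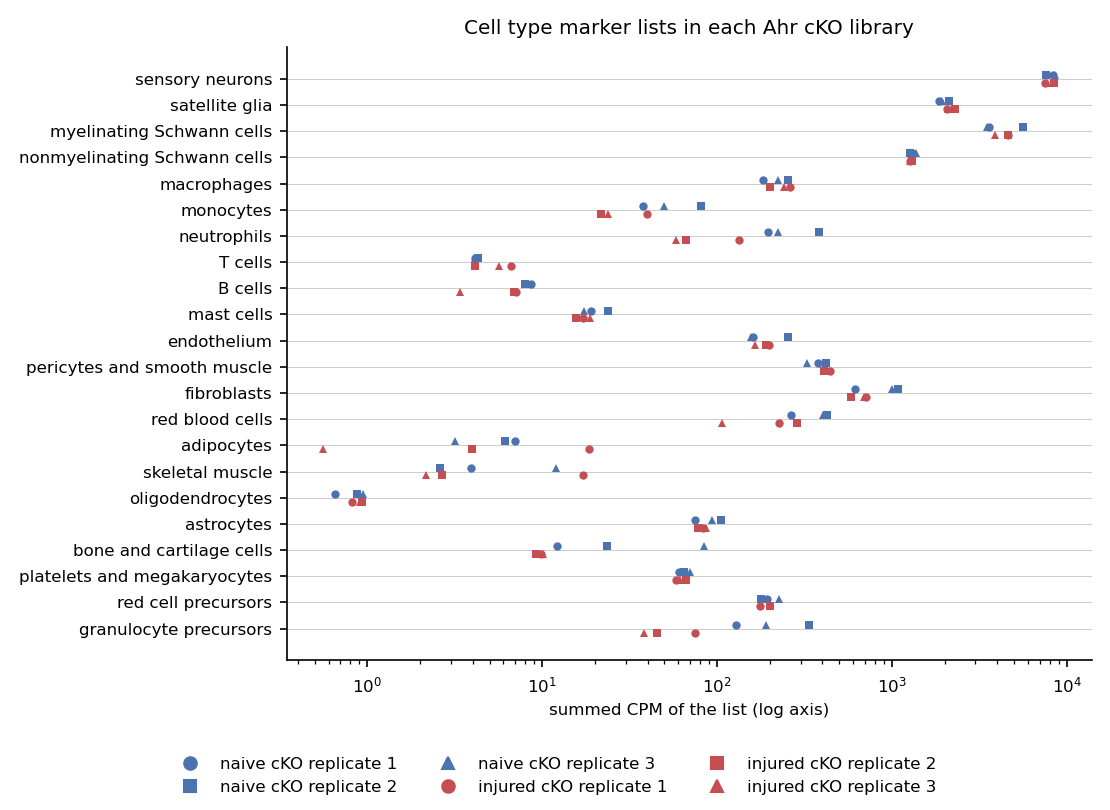
Summed CPM of each cell type marker list in the 6 cKO libraries, on a log axis, with 1 symbol per library. Sensory neuron markers lie between 7534 and 8609 CPM in all libraries, and neutrophil markers separate the naive (195.6 to 383.2 CPM) from the injured libraries (58.0 to 132.7 CPM).

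The size of the change differed among the 3 injured mice. Over the 475 genes that rose at least 2-fold, the median log2 of the injured library over the naive mean was 1.33 in replicate 1, 1.69 in replicate 2 and 1.42 in replicate 3. Replicate 2 was the highest of the 3 in 350 of these genes and replicate 1 the lowest in 316. Among these same genes, *Sprr1a*, *Gal* and *Tmem88b* had this order, while *Ifit1* was highest in replicate 1. Over the 103 genes that fell at least 2-fold the medians were -1.05, -1.25 and -1.08, and replicate 2 was the lowest in 52. Replicates 2 and 3 are the libraries that are male by transcripts, and the part of sex in this spread was not tested.

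**Figure D4:**
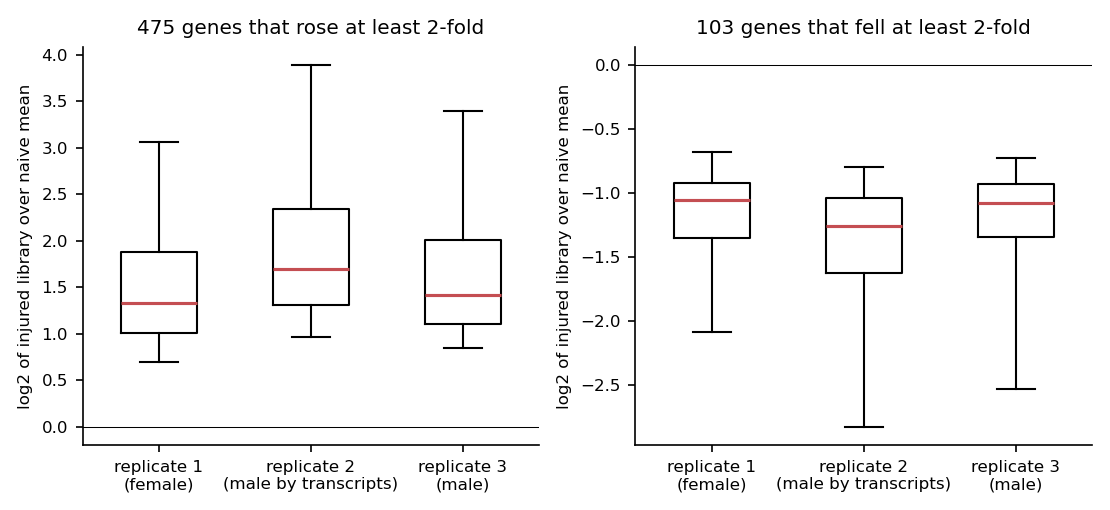
Log2 of each injured cKO library over the mean of the naive cKO libraries, for the 475 genes that rose and the 103 that fell at least 2-fold; boxes show the quartiles, the red line the median, and whiskers the 5th and 95th percentiles. The median is furthest from 0 in replicate 2 in both panels (1.69 and -1.25).

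The crush response of cKO ganglia was set against that of control ganglia in the same fit. By transcripts only the injured cKO group held males, so sex is partly tied to any genotype difference here. In control mice 2744 genes rose (12.9%) and 1857 fell (8.73%). Of the 475 genes that rose at least 2-fold in cKO, 421 were also called higher in control mice and 465 had the same sign, with a median log2 fold change of 1.59 in cKO and 1.47 in control. These genes were chosen for their change in cKO, so their medians there describe the choice. Of the 103 that fell at least 2-fold, 60 were also called lower and 101 had the same sign, with medians of -1.18 and -0.98. No gene passed edgeR's interaction test of a difference in crush effect between the genotypes (0 of 21261, 0%; the smallest adjusted p was 1) or that of DESeq2, while 627 genes (2.95%) had an unadjusted p under 0.05. *Atf3* changed by 5.60 in cKO and 5.64 in control mice, *Sox11* by 3.17 and 3.38, and *Adcyap1* by 2.17 and 2.17. The smallest unadjusted interaction p among the genes named here was that of *Ccl7* (2.07 in cKO against 0.76 in control, unadjusted p 0.00201), followed by *Osmr* (0.36 against 0.70, p 0.00414), *Scn11a* (-0.21 against 0.17, p 0.00585) and *Runx1* (-0.37 against -0.06, p 0.0117), with an adjusted p of 1 for each. Without injured cKO replicate 1, which leaves 2 male libraries against female ones, 8 genes passed.

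**Figure D5:**
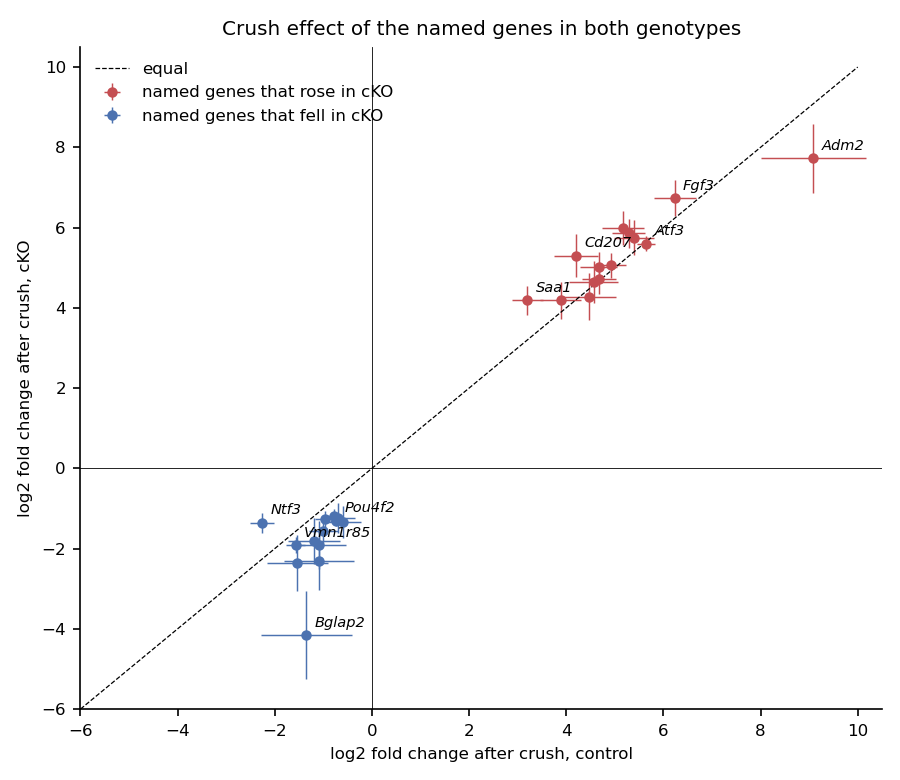
Log2 fold change after crush of 14 genes with the largest rise and 13 with the largest fall, in cKO (vertical axis) against control ganglia (horizontal axis), with bars of 1 standard error and the line of equal change. *Atf3* lies on the line, at 5.60 and 5.64, *Adm2*, with 1 naive cKO count, below it at 7.72 and 9.09, and *Bglap2* lies furthest from it among those that fell, at -4.16 and -1.35.

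The operation without a crush was measured in cKO ganglia of 2 male mice 1 day after sham surgery, from the operated and the opposite side, in a table scaled on its own. The labels state no tamoxifen for these mice, so the values are set side by side with no test. *Atf3* was at 12.3 and 10.2 CPM on the opposite side and 42.3 and 179.6 CPM on the operated side in mice 1 and 2. *Sprr1a* was at 0.433 and 1.56 CPM on the opposite side and 3.83 and 8.05 CPM on the operated side, and *Gadd45a* at 22.9 and 21.1 CPM on the opposite side and 31.8 and 74.8 CPM on the operated side. In these 3 genes the operated side was above the opposite side in both mice and below every crushed library. The operated side of mouse 2 also stood apart in muscle genes, named after their values were seen. *Myh4*, a fast muscle myosin, was at 151.8 and 5.97 CPM on the opposite side and 4.35 and 513.3 CPM on the operated side, and *Ckm*, the muscle creatine kinase, at 66.8 and 5.05 CPM and at 4.39 and 362.1 CPM. Their levels were thus highest on the operated side of mouse 2, next highest on the opposite side of mouse 1, and their part in the sham values was not tested. *Gal* was at 16.5 and 16.9 CPM on the opposite side and 57.7 and 50.9 CPM on the operated side. Its opposite sides lay above the naive libraries (6.69, 5.50 and 5.70 CPM) and its operated sides above the crushed libraries (20.9, 36.6 and 26.4 CPM), across tables that were scaled separately. *Il6* was at 0.0962 and 0.357 CPM on the opposite side and 0.206 and 0.391 CPM on the operated side, and *Mrgpra3*, which fell after crush, at 18.1 and 15.9 CPM on the opposite side and 17.01 and 14.9 CPM on the operated side.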

How the data were processed

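Per the labels' protocols, a QIAGEN RNeasy Plus Mini kit served to extract RNA from L4 to L6 ganglia and a stranded TruSeq mRNA kit to make libraries. The authors deposited whole-number read counts per gene, in 1 table for the 12 naive and crushed libraries and another for the sham libraries, with 0 value columns left unmapped. Trim Galore, HISAT2, featureCounts and the build mm10 are named in the submitters' processing notes, with no versions. The strand setting, and whether reads in introns were counted, are not given in the sources used here. Gene IDs were matched to GENCODE M21 (55141 of 55401, 99.53%).

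Genes passing edgeR's filter (minimum count 10, total 15) were fitted by edgeR 4.0.16 (R 4.3.3, limma 3.58.1) with TMM factors, the 12 libraries together and 1 mean per group, by the quasi-likelihood test with Benjamini-Hochberg adjustment over all genes tested. Calls are two-sided at an adjusted p under 0.05. CPM values are scaled by TMM. Replicates were 3 mice per group, and counting intervals cover counting error only. Genes that share reads with an overlapping gene are marked as such. The 15 genes named in each direction had the largest change among called genes with groups that did not overlap, a mean of at least 1 CPM and at most 10% of counts in an overlapping gene; 1 of those that rose and 2 of those that fell are not reported here. The comparison and the gene lists were chosen with earlier results of these data known. The alternatives were DESeq2 1.42.0, RLE factors, other filters, an adjusted p under 0.1, the 6 cKO libraries alone, a replicate block, a sex covariate and leaving out each library. Leaving out both male libraries was added after the data were seen. Promoter windows are from RefSeq.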

Additional observations from a re-analysis of the deposited data

How the results depend on the processing

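Of 3962 calls made in the cKO comparison, all kept their sign with DESeq2, RLE factors, no filter on low counts and the replicate block, with 2135, 2242, 2065 and 2167 genes higher and 1531, 1672, 1442 and 1540 lower. At an adjusted p under 0.1 in the same fit 2876 rose and 2376 fell. With at least 10 counts in every library 2035 rose and 1758 fell, and with the 6 cKO libraries alone 1931 and 1518. With sex by transcripts as a covariate 995 rose and 419 fell, and without both male injured libraries, a setting chosen after the data were seen, 845 and 334. In these settings 1 call each changed sign, though the calls were chosen on these same libraries. Leaving out each library in turn gave 1606 to 2122 rises and 1054 to 1625 falls, with 1078 falls without naive replicate 3 and 1054 without injured replicate 2. The interaction, not run with the 6 cKO libraries alone or without both male libraries, gave 0 genes in the other settings except without injured cKO replicate 1, where it gave 8. Same-numbered naive and injured libraries came from different mice and their deviations correlated at -0.162, -0.139 and -0.087, so the numbers do not pair them. With the replicate block 2167 genes rose, 1540 fell and the interaction gave 0. Genes with few naive counts have no precise fold: *Grp* and *Adm2* had 0 and 1, and *Abra*, *Ankrd1*, *Cd207*, *Lce1g*, *Clca1*, *Crh* and *Saa1* had 4 to 9 over the 3 libraries, with a 95% counting interval of 26.4 to 253 for the count ratio of *Abra* and 4.97 to 24.6 for that of *Crh*.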

Other observations

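Beyond the lists above, several signalling genes changed by 4-fold or more, or were receptors that fell, and were chosen after their values were seen. *Sema6a*, a transmembrane semaphorin, was at 16.4, 18.5 and 17.6 CPM in naive and 122, 203 and 173 CPM in injured cKO libraries (log2 fold change 3.25, SE 0.193, adjusted p 1.24e-06). *Procr*, the endothelial protein C receptor, went from 4.74, 6.001 and 5.92 CPM to 37.96, 63.98 and 39.9 CPM (log2 fold change 3.09, SE 0.210). *Mchr1*, the melanin-concentrating hormone receptor, went from 3.48, 3.25 and 4.08 CPM to 16.8, 33.5 and 20.5 CPM (log2 fold change 2.70, SE 0.228). All injured libraries lay above all naive ones in these genes, which holds for 18.5% of all genes tested. *Csf1*, the macrophage growth factor that injured sensory neurons are known to make, rose from 26.6, 28.3 and 30 CPM to 86.7, 154 and 109 CPM (log2 fold change 2.04, SE 0.168, adjusted p 1.05e-05). *Pmaip1*, a pro-apoptotic BH3-only protein, was at 2.60 and *Igfbp3*, which binds insulin-like growth factors, at 2.62 on the log2 scale.

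Among receptors coupled to G proteins, *Prokr1*, a prokineticin receptor, fell from 43.6, 43.4 and 48.2 CPM to 24.2, 19.7 and 23.6 CPM (log2 fold change -1.001, SE 0.0857, adjusted p 1.46e-05). *Htr4*, a serotonin receptor, fell from 29.8, 25.8 and 29.7 CPM to 16.2, 12.04 and 14.7 CPM (log2 fold change -0.99, SE 0.109), and *Adra2c*, an adrenergic receptor, from 32.1, 30.3 and 32.1 CPM to 15.9, 16.6 and 17.1 CPM (log2 fold change -0.93, SE 0.103). The injured libraries lay below the naive ones in each of the 3, as they did in 17.6% of all genes tested.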
